A study of Mus musculus with 2 samples.

Results

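The tissue described here is the skin section that received SspA+HDM, divided into its left and right sides. That section holds 2 long strips of skin. A cell was placed at the mean position of its outline vertices, the strips were separated by their y position, and each strip was divided at the midpoint between its lowest and highest cell x. Strip 1 held 9005 cells on its left side and 12464 on its right, and strip 2 held 10677 and 13983. Together these are 46129 of the 62074 segmented cells of the series, and 13 further cells of the section lay outside the strips. No measured gene took part in this division. Right means higher x in the instrument's coordinates and has no stated anatomical meaning.

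The series measured RNA in place in whole dorsal skin of C57BL/6 mice with Xenium In Situ, which decodes single transcripts of a fixed gene panel at their positions in a tissue section. The skin of both groups had been shaved and depilated and was sectioned at day 7. The mock group received PBS on the skin, and the other group SspA together with HDM on the skin. Each treatment had 1 sample, the labels give no number of animals, and nothing states whether the strips of a section came from different animals. The strips have much the same outline, and nothing shows that they are independent. No test was therefore possible: values are CPM, the count scaled to a common total over the 379-gene panel, ratios are right over left within a strip, and the 95% intervals given cover counting error only. Strips of the mock section, divided in the same manner, give the level of side-to-side difference without SspA+HDM, but left and right in one section have no known relation to left and right in the other.

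Mouse back skin has an outer epithelium, the epidermis, whose keratinocytes divide in the basal layer and cornify towards the surface. Hair follicles reach down from it through the fibroblast-rich dermis into a layer of fat, under which lies a thin sheet of skeletal muscle. Irritated epidermis thickens, its keratinocytes take up a stress programme marked by keratins such as Krt16 and by growth factors such as amphiregulin (Areg), and leukocytes enter the dermis. Fat cells are also a known source of secreted plasma-type proteins, among them haptoglobin (Hp), complement C3 and resistin (Retn).

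The right side of both SspA+HDM strips was the thicker one. Median tissue depth was 298 µm on the left and 417 µm on the right of strip 1, and 305 µm and 437 µm in strip 2. The sides were nearly equal in length (3.81 to 3.87 mm), so the right held more cells per mm, 3269 against 2330 in strip 1 and 3647 against 2760 in strip 2. The layer outside the first dermal transcripts, measured to the 5th percentile of depth of Lum, Dpt, Mfap5 and Aspn transcripts in 100-µm bins, had a median of 62.4 µm on the left and 97 µm on the right of strip 1, and of 66.7 µm and 92.2 µm in strip 2. Single bins overlapped between sides, from -21.7 to 107 µm on the left and 36.8 to 169 µm on the right of strip 1. In strip 2 they ran from 48.8 to 133 µm and from 57.4 to 174 µm. A value below 0 lies above the surface as drawn here. In the mock strips the median of this layer was 30.0 to 33.5 µm on all 4 sides. Right-over-left ratios of tissue depth were 1.02 and 0.942 in mock, against 1.40 and 1.43 in SspA+HDM.

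**Figure D1:**
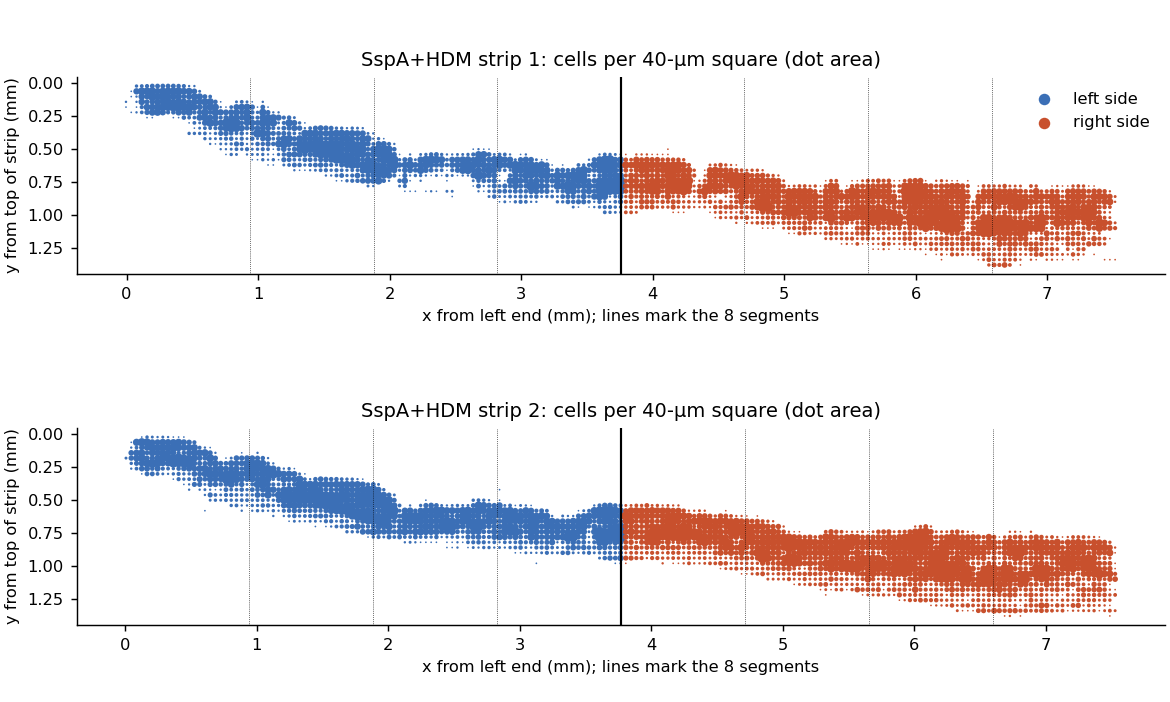
Cells of both SspA+HDM strips in 40-µm squares, with dot area proportional to the number of cells, x in mm from the left end and y in mm from the top of the strip (the outer surface is at the top). The heavy line divides left (blue) from right (orange) and thin lines mark 8 equal segments; both strips widen on the right, where median tissue depth was 417 and 437 µm against 298 and 305 µm.

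Transcripts of quality score 20 or more inside cells numbered 1419434 on the left and 2166916 on the right of strip 1, and 1764560 and 2578437 in strip 2. The median cell held 106 and 125 of them in strip 1 and 116 and 132 in strip 2, and mock cells also held more on the right (96 and 112, then 95 and 112). The share of transcripts reaching that quality was 77.2% on both sides of strip 1, and 79.0% and 78.7% in strip 2. The share over nuclei ran from 31.0% to 32.5%. The highest single control feature reached 26 to 46 transcripts on a side, which is the scale of false decoding against which low counts have to be read. Median z position was 22.2 and 22.6 µm on the left sides and 17.8 and 19.4 µm on the right, and it was lower on the right in the mock strips too (23.3 and 21.8 against 19.7 and 18.3 µm). The part of these values in the gene ratios was not tested. The epithelial genes Trim29, Dsc3, Serpinb5 and S100a14 took 8.88% to 9.72% of transcripts on the 4 sides, and no B-cell gene of the list used was on the panel.

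Of 266 genes with at least 100 transcripts on a side of each strip, 17 (6.39% of those counted) were at least 1.5-fold higher on the right in both strips and 7 (2.63%) at least 1.5-fold lower. In the mock strips the same rule gave 1 higher gene (0.481% of 208) and 4 lower ones (1.92%). Over the 206 genes counted in both sections the numbers were 10 and 6 with SspA+HDM and 1 and 4 in mock, and 0 genes passed in the same direction in both sections. With so few genes in mock an overlap of 0 says little, and left and right of the sections have no known relation. The strips gave similar ratios: 216 of 266 genes lay on the same side of equality in both, 134 higher on the right and 82 lower, and 0 passed 1.5-fold in opposite directions. Right sides held more transcripts than left ones, so genes higher on the right reached the minimum of 100 more easily. With the lower minima given in the closing section, the excess of higher over lower genes shrank or reversed. Across genes, which are not independent replicates, Pearson's r between strips was 0.88 and Spearman's rho 0.82, against 0.69 and 0.69 in mock. Strip 1 alone had 39 genes higher (14.7%) and 13 lower (4.89%), and strip 2 had 20 (7.52%) and 12 (4.51%). In mock, strip 1 had 4 higher (1.92%) and 9 lower (4.33%), and strip 2 had 2 (0.962%) and 9 (4.33%). The median gene of strip 1 was shifted by 0.15 on the log2 scale towards the right and that of strip 2 by 0.04, and centring on these medians left 9 higher and 9 lower genes.

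**Figure D2:**
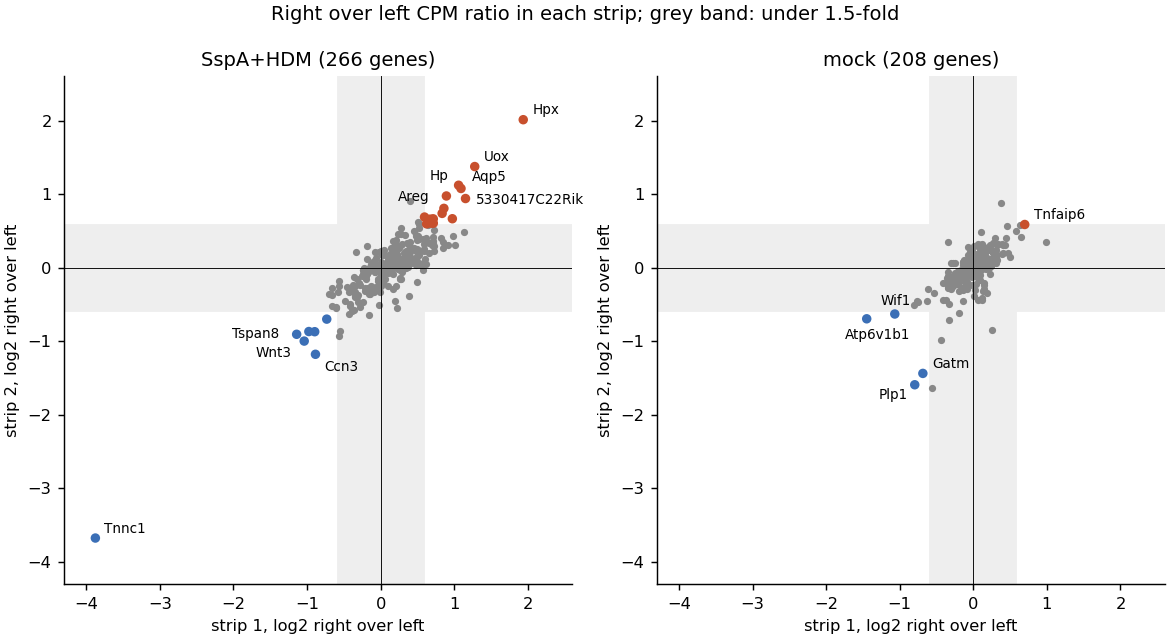
Each dot is a gene, with its log2 ratio of right over left CPM in strip 1 on the x axis and in strip 2 on the y axis, for SspA+HDM (266 genes) and mock (208 genes). Grey bands mark less than 1.5-fold; coloured dots passed 1.5-fold in the same direction in both strips, 17 higher and 7 lower with SspA+HDM against 1 and 4 in mock.

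These numbers are shares of the panel. Counted per mm of strip length instead, the thicker right side had 130 higher genes and 1 lower gene, Tnnc1, and counted per segmented cell it had 27 and 6.

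Promoters of Hpx and Uox are shown because these genes had the highest ratios in both strips; both lines give the 250 bases before the RefSeq start on the gene's strand (GRCm38.p6). Hpx lies on the minus strand at chr7:105600117-105600366 and Uox on the plus strand at chr3:146596899-146597148.
Hpx: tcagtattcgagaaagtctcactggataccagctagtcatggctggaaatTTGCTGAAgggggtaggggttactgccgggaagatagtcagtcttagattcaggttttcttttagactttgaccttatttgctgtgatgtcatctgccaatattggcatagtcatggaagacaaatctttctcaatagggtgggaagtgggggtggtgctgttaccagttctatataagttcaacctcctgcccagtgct
Uox: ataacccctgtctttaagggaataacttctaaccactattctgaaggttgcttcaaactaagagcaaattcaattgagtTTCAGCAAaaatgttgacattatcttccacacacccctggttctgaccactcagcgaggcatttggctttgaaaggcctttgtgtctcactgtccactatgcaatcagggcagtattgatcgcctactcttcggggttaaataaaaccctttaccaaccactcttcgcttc
Capitals mark a match to TTGCNNAA, searched on both strands; the match of Uox is on the reverse strand. It begins 200 bases before the start in Hpx and 171 bases before it in Uox, and 9.56% of 32851 windows of this length held at least 1 match. The same letters occur once each in the windows of Wnt3 and Tspan8, which were lower on the right. TATAAA (12.4% of windows), TGANTCA (6.75%) and TTCNNNGAA (7.02%) did not occur in the windows of Hpx and Uox. A loose form of the MEF2 motif, with any base allowed at its middle positions (3.20% of windows), did not occur there either. A match is a description of the letters and not a binding site. RefSeq windows were found for 14 of the 17 higher and 6 of the 7 lower genes.

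Hpx encodes hemopexin, which binds free haem. It measured 28.2 CPM on the left and 108 on the right of strip 1 (40 and 234 transcripts), and 31.7 and 128 CPM in strip 2 (56 and 330 transcripts). The right was 3.83-fold (95% interval 2.73 to 5.50) and 4.03-fold (3.03 to 5.45) higher, the highest ratios of the 266 genes. The highest control features on the left sides held 46 and 27 transcripts, so the left level of Hpx is poorly measured and the fold uncertain. In mock it lay between 12.1 and 36.2 CPM and was not counted. Over nuclei alone the log2 ratio was 0.72 and 0.34, below that in whole cells (1.94 and 2.01).

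Hp, haptoglobin, the binder of free haemoglobin, is far more abundant, so its ratio carried little counting error. It measured 3995 and 8328 CPM in strip 1 and 4306 and 9364 CPM in strip 2, left and right. The right was 2.08-fold (2.02 to 2.15) and 2.17-fold (2.12 to 2.23) higher. The mock strips were also higher on the right, by 0.45 and 0.56 on the log2 scale, which stays under 1.5-fold.

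C3, the central complement protein, was higher on the right of both strips. It measured 2652 and 4812 CPM in strip 1 and 3210 and 5614 CPM in strip 2. The ratios were 1.81 (1.75 to 1.88) and 1.75 (1.70 to 1.80). Retn, the fat-cell hormone resistin, measured 1598 and 2538 CPM in strip 1 and 2007 and 3169 CPM in strip 2, and was 1.59-fold and 1.58-fold higher. Its mock log2 ratios were 0.58 and 0.50, close to the 0.67 and 0.66 with SspA+HDM. Serpina3n, a secreted serine protease inhibitor of the acute-phase response, passed by little with 3948 and 6089 CPM in strip 1 and 4200 and 6349 CPM in strip 2, and its mock ratios were -0.06 and 0.04.

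Transcripts of Hp, C3 and Retn lay deep on both sides, with at most 7.23% of them within 100 µm of the surface on any side. Hpx did so on the right (9.83% and 4.55%), while on the left 47.5% and 37.5% of its few transcripts lay within 100 µm. Fat-cell genes were also higher on the right over whole sides. All 5 counted adipocyte genes were higher there in both strips, with medians of 0.32 and 0.34 on the log2 scale beside 0.15 and 0.04 over all 266 genes, though 1 (Retn) passed 1.5-fold. Cd36, the fatty acid carrier with the lowest ratio of the list, stood at 0.09 and 0.01. The strips are divided below into 8 equal segments of x. Without segment 3 the medians of the adipocyte list were 0.08 and 0.04, beside 0.07 and 0.02 over all genes. Without segment 8 they were 0.10 and 0.04, beside 0.10 and 0.01. Without any other single segment they were 0.16 or more. In cells deeper than 100 µm the medians of the adipocyte list were 0.03 and 0.12, beside 0.14 and 0.03 over all genes. Within 100 µm of the surface they were -0.42 and -0.26, beside -0.28 and -0.31. Set against the summed transcripts of Car3, Cd36, Pck1 and Aqp7, a comparison added after the data were seen, Hpx kept log2 ratios of 1.75 and 1.70 and Hp of 0.87 and 0.81. C3 then stood at 0.67 and 0.50, which passes 1.5-fold in 1 strip, and Retn at 0.48 and 0.35, which passes in neither. On that scale 6 of the 266 genes were higher and 24 lower. In a section, more cells of a type and more RNA per cell cannot be told apart by these sums.

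Uox encodes urate oxidase, the peroxisomal enzyme that degrades uric acid. It measured 1995 CPM on the left and 4841 on the right of strip 1, and 1878 and 4871 CPM in strip 2. The right was 2.43-fold (2.33 to 2.53) and 2.59-fold (2.5 to 2.70) higher. In mock it lay between 7.60 and 19.1 CPM on the 4 sides and was not counted. Between 95.1% and 96.1% of its transcripts lay within 100 µm of the surface on every side, and per transcript of the 4 epithelial genes the log2 ratios were 1.29 and 1.48.

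Areg, a ligand of the epidermal growth factor receptor, measured 740 and 1374 CPM in strip 1 and 723 and 1420 CPM in strip 2. The right was 1.86-fold (1.73 to 2.0) and 1.97-fold (1.84 to 2.10) higher. Mock strips pointed the same way with log2 ratios of 0.38 and 0.87, at 196 to 360 CPM. Krt16, the stress keratin of the same list, did not follow: it measured 35344 and 33209 CPM in strip 1 and 33124 and 34612 CPM in strip 2.

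The water channels Aqp5 and Aqp3 were both higher on the right. Aqp5, known from secretory glands, measured 35.9 and 76.6 CPM in strip 1 and 41.4 and 87.3 CPM in strip 2, from 51, 166, 73 and 225 transcripts. Its ratios were 2.13 (1.55 to 2.98) and 2.11 (1.61 to 2.79). Aqp3, the glycerol and water channel of keratinocytes, was far more abundant and measured 10422 and 16832 CPM in strip 1 and 9781 and 14882 CPM in strip 2. It passed narrowly, at 1.62-fold and 1.52-fold. Serpinb11, a serpin of the intracellular clade, measured 1394 and 2107 CPM, then 1342 and 2163 CPM, while in mock its log2 ratios were -0.63 and -0.45.

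The remaining 7 higher genes included several expressed by leukocytes. Ccl12, a chemokine for monocytes, measured 106 and 209 CPM in strip 1 and 111 and 175 CPM in strip 2, and was 1.97-fold (1.63 to 2.38) and 1.59-fold (1.34 to 1.89) higher. Cd300lf, a receptor of myeloid cells, measured 199 and 356 CPM, then 190 and 318 CPM, and was 1.78-fold and 1.67-fold higher. Pf4, a chemokine of platelets and macrophages, measured 995 and 1635 CPM, then 1173 and 1859 CPM, and was 1.64-fold and 1.58-fold higher. These genes were measured in every side at counts of 151 transcripts or more. Ms4a6b, a membrane protein of leukocytes, was 1.56-fold and 1.53-fold higher, and Lyve1, the hyaluronan receptor of lymphatic endothelium and some macrophages, 1.63-fold and 1.58-fold. The clone-named genes 5330417C22Rik (log2 ratios 1.15 and 0.94, left counts of 48 and 51) and 6330403K07Rik (0.72 and 0.60) complete the 17.

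Tnnc1 encodes the troponin C of slow skeletal and cardiac muscle and had the lowest ratio. It measured 454 CPM on the left and 30.9 on the right of strip 1 (645 and 67 transcripts), and 376 and 29.5 CPM in strip 2 (664 and 76). The left was 14.7-fold (11.4 to 19.2) and 12.8-fold (10.1 to 16.4) higher. The muscle list did not share this ratio: 0 of its 7 counted genes passed 1.5-fold, with medians of -0.23 and -0.02. Actn3, the actinin of fast fibres, stood at -0.32 and -0.16 and Pvalb, parvalbumin of fast fibres, at -0.09 and 0.10.

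Among epithelial genes, Wnt3, a Wnt ligand of skin epithelium, measured 628 and 306 CPM in strip 1 and 584 and 292 CPM in strip 2. The left was 2.05-fold (1.86 to 2.28) and 2.0-fold (1.82 to 2.20) higher. Tspan8, a tetraspanin of the cell membrane, measured 1608 and 729 CPM, then 1396 and 745 CPM, and was 2.21-fold and 1.87-fold higher on the left. In both genes the left levels of either strip exceeded both right levels.

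Chl1, a cell adhesion molecule of the L1 family, measured 3461 and 2083 CPM in strip 1 and 3311 and 2040 CPM in strip 2 and was 1.66-fold and 1.62-fold higher on the left. Lce1m, a late cornified envelope protein, measured 535 and 272 CPM, then 543 and 298 CPM, and was 1.97-fold and 1.82-fold higher there. Gpx2, a glutathione peroxidase of epithelia, measured 321 and 173 CPM, then 288 and 158 CPM, and was 1.86-fold and 1.83-fold higher. Ccn3, a secreted matricellular protein, measured 1082 and 586 CPM, then 1450 and 641 CPM, and was the only one of the 7 whose ratio was clearly larger in strip 2 (1.85-fold, 1.71 to 1.99, against 2.26-fold, 2.12 to 2.41). Per mm of strip, the log2 ratios of Wnt3 (-0.41 and -0.44), Tspan8 (-0.51 and -0.35) and Chl1 (-0.10 and -0.14) were smaller than as shares of the panel.

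The threshold cut through a continuous range. Just inside it lay Serpina3n (smaller log2 ratio 0.60), Serpinb11 (0.60), 6330403K07Rik (0.60) and Aqp3 (0.61), and just outside it Csf3r (0.58), Cnfn (0.52), Slc5a1 (0.52) and, on the lower side, Atp6v0d2 (-0.57) and Klra8 (-0.55).

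Each strip was next divided into 8 equal segments of x, 4 on each side, to show whether a difference ran along a side or came from 1 place. In both strips all 4 right segments lay above, or all 4 below, the 4 left segments for 8 of the 24 genes past 1.5-fold, beside 12 of all 266 (4.51%). The 24 genes were chosen by the side ratios of these same transcripts, so a larger share among them is no separate support. Hpx, Hp, Uox, Ms4a6b and Serpinb11 were higher and Wnt3, Chl1 and Ccn3 lower in this manner. The separation of Hp was narrow, with 403 to 5554 CPM on the left and 5683 to 11479 on the right of strip 1. In strip 2 it had 1807 to 6148 and 6871 to 13317 CPM. Leaving out 1 segment moved its log2 ratio between 0.79 and 1.30 in strip 1 and between 0.88 and 1.37 in strip 2. Hpx had 19.9 to 41.3 CPM in the left segments of strip 1 and 77.2 to 176 in the right ones, and 23.5 to 43.1 against 91.4 to 185 in strip 2. Uox had 1212 to 2583 CPM on the left and 3697 to 5822 on the right of strip 1, with 1319 to 2508 and 3351 to 6068 in strip 2. Chl1 declined with position from segment 3 on, from 4386 to 1752 CPM in strip 1 and, from segment 2 on, from 3689 to 1712 CPM in strip 2.

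Other genes owed their place to 1 or a few segments. Tnnc1 lay in segments 2 and 3, with 926 and 692 CPM in strip 1 and 772 and 516 in strip 2, and had 14.5 to 119 CPM in the other segments. The muscle genes Pvalb (23816 and 20142 CPM) and Actn3 (19137 and 15960 CPM) were also highest in segment 2 of strips 1 and 2. In segment 3 of strip 1, however, Pvalb was at its lowest (8642 CPM). Without segment 2 the medians of the muscle list were 0.22 and 0.23, beside 0.16 and 0.02 over all genes. Areg peaked in segment 7 at 2358 and 2347 CPM, and without that segment its log2 ratios were 0.38 and 0.49, under 1.5-fold. Aqp3 peaked there too, at 25167 and 22146 CPM, and stood at 0.36 and 0.26 without it. Segment 7 also held the most cells per mm of each strip, 3902 and 4453.

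Gpx2 rested on segment 2, with 569 and 493 CPM there, and had log2 ratios of -0.28 and -0.41 without it. Lce1m rested on segment 3, at 1164 and 995 CPM, and stood at -0.53 and -0.42 without it. Retn varied along the strips by more than it did between sides, from 95.1 to 3580 CPM in strip 1 and from 735 to 4704 CPM in strip 2, and leaving out each of 4 segments in turn put it under 1.5-fold. Segment 3 of strip 1 held the fewest cells of any segment (1680), and Hp was at 403 CPM there. In all, 13 of the 24 genes came out under 1.5-fold in at least 1 strip when 1 segment was left out. Beside those above they were Pf4 (lowest log2 ratios 0.48 and 0.50 in strips 1 and 2), Lyve1 (0.53 and 0.50), Ms4a6b (0.53 and 0.54), Serpina3n (0.45 and 0.44), Serpinb11 (0.52 and 0.57) and 6330403K07Rik (0.48 and 0.21), and in strip 2 alone 5330417C22Rik (0.57) and Ccl12 (0.56). The other 11, among them Hpx, Hp, Uox, Aqp5, C3, Tnnc1, Wnt3 and Chl1, stayed at or past 1.5-fold without each segment.

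**Figure D3:**
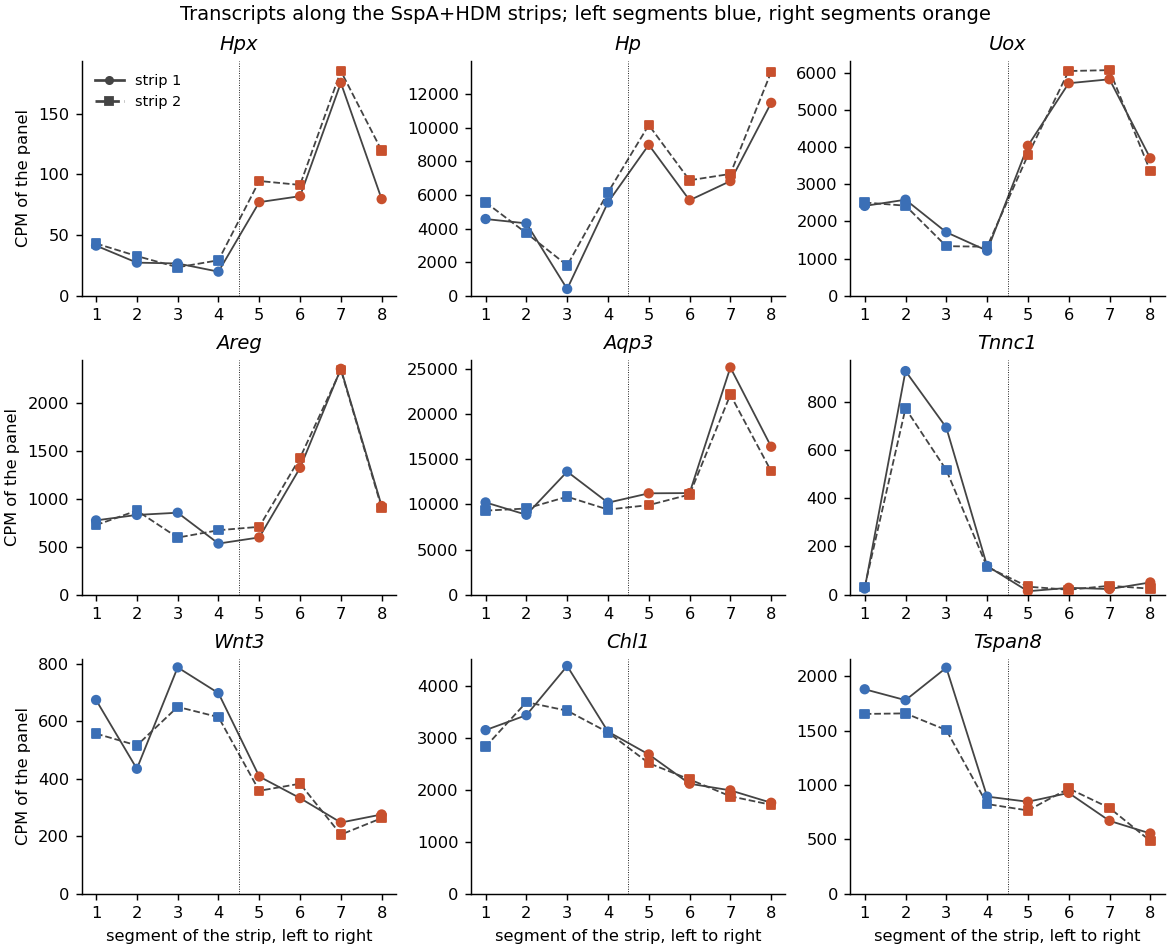
CPM of 9 genes in 8 equal segments of each SspA+HDM strip from left (blue) to right (orange); circles with a solid line are strip 1, squares with a dashed line strip 2, and the dotted line divides the sides. Hpx, Hp and Uox were higher in all right segments, Areg and Aqp3 peaked in segment 7, Tnnc1 lay in segments 2 and 3, and Wnt3 and Chl1 were lower in all right segments.

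Because the right side was deeper, transcripts were also placed by depth below the outer surface, and CPM were taken within bands of depth. Cells in the outer 100 µm were 39.9% and 37.9% of the left sides and 28.7% and 28.5% of the right. A band at a fixed depth does not hold the same layer on both sides, since the median outer layer was thicker on the right. Within 100 µm of the surface 12 of 176 counted genes were higher on the right (6.82%) and 49 lower (27.8%), and deeper than that 27 of 252 were higher (10.7%) and 9 lower (3.57%). Depth is doubtful in segment 3 of strip 1, which held 1981 of the 2213 transcripts of the muscle genes Pvalb and Actn3 lying within 100 µm of the surface in that strip, against 215 in all of strip 2. Without segment 3 in both strips, the numbers were 12 and 49 within 100 µm and 25 and 12 deeper.

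Uox was most abundant at the surface on both sides and higher on the right there and in the bands below. In the outermost 25 µm it measured 5826 CPM on the left and 20299 on the right of strip 1, and 5714 and 18554 CPM in strip 2. It measured 2343 and 9402 CPM at 25 to 50 µm, then 2249 and 9356, and 554 and 1398 CPM at 100 to 150 µm, then 553 and 1727. Cnfn, a late marker of cornifying keratinocytes, was also higher on the right in the outermost 25 µm, with 10108 and 22860 CPM in strip 1 and 12050 and 23324 in strip 2.

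Aqp5 occupied different depths on the left and right. In the outermost 25 µm it had 6.23 CPM on the left and 370 on the right of strip 1, and 13.4 and 366 CPM in strip 2, whereas at 100 to 150 µm it had 133 and 50.4 CPM, then 133 and 62.0. Deeper than 100 µm its log2 ratio was below 0, at -1.23 and -0.97. The left-sided Aqp5 transcripts had a median depth of 146 and 145 µm, and the right-sided ones of 5.70 and 8.30 µm. Mock strips held 53.7 to 93.5 CPM of Aqp5.

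Areg was higher on the right in every band down to 400 µm, and reached deeper there. Its median depth was 19.8 µm on the left and 58.8 µm on the right of strip 1, and 22.7 and 57.3 µm in strip 2. At 100 to 150 µm it had 513 and 2379 CPM, then 579 and 2561. Krt16, equal over whole sides, showed the same reach on a smaller scale: under 25 µm it had 78533 and 86177 CPM, then 77442 and 84727, and at 100 to 150 µm 14659 and 32440 CPM, then 13938 and 36466.

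Tspan8, Wnt3 and Chl1 were lower on the right near the surface, and their order differed in deeper bands. Tspan8 had 4076 and 1107 CPM under 25 µm in strip 1, and 3779 and 1123 in strip 2, but at 100 to 150 µm the right was the higher side (352 and 1041, then 386 and 987 CPM), and at 200 to 300 µm the left again (649 and 153, then 575 and 188 CPM). Wnt3 had 2003 and 527 CPM at 25 to 50 µm, then 1955 and 546, and 665 and 970, then 662 and 659 CPM, at 75 to 100 µm. Chl1 had 6115 and 3188 CPM at 25 to 50 µm, then 6248 and 3567, and at 200 to 300 µm the right was the higher side, with 482 and 1732 CPM, then 510 and 1474. Deeper than 100 µm its log2 ratios were 0.25 and 0.03.

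Hp lay deep on both sides, and deeper on the right. Its median depth was 218 µm on the left and 317 µm on the right of strip 1, and 220 and 305 µm in strip 2. The left peaked at 200 to 300 µm with 18814 and 17789 CPM, and the right at 300 to 400 µm with 30776 and 29672 CPM, so the right peak was higher as well as deeper. Hpx had its highest level at 300 to 400 µm on the right, with 374 and 439 CPM, and at most 55.2 CPM in any band on the left. C3 was higher on the left at 200 to 300 µm, with 9625 CPM on the left and 5419 on the right of strip 1, and 10831 and 7785 in strip 2. At 300 to 400 µm the right was the higher side, with 5281 and 15767 CPM, then 6679 and 16249. Below 400 µm C3 reached 16205 and 17655 CPM on the right, beside 10769 and 12427.5 CPM on the left. The left bands below 400 µm held few transcripts, and values as coarse as 1538 CPM in strip 1 and 828.5 CPM in strip 2 were the smallest above 0. The left levels of C3 there are therefore poorly measured.

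The 3 leukocyte genes with the highest ratios also differed by depth. Within 100 µm of the surface Cd300lf (-0.68 and -0.40), Ccl12 (-0.19 and -0.34) and Pf4 (-0.59 and -0.32) were lower on the right, and below it they stood at 0.81 and 0.75, 0.99 and 0.71, and 0.58 and 0.60. The median over all counted genes was -0.28 and -0.31 within 100 µm, so Ccl12 lay near it, and 0.14 and 0.03 below. Mpeg1 was lower on the right in both ranges, at -0.73 and -0.82 within 100 µm and at -0.30 and -0.45 below. Median depth of Pf4 transcripts was 194 and 268 µm in strip 1 and 195 and 287 µm in strip 2.

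**Figure D4:**
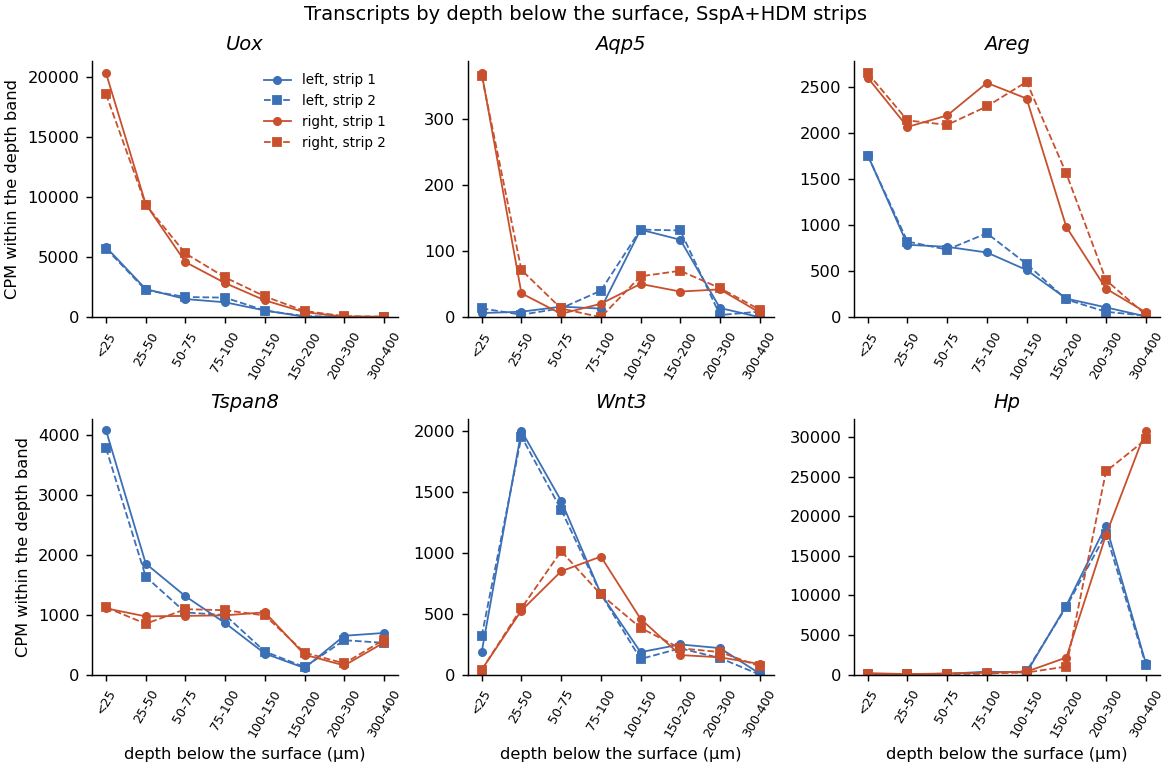
CPM of 6 genes within bands of depth below the outer surface (x axis, µm), left sides in blue and right sides in orange, strip 1 as circles with solid lines and strip 2 as squares with dashed lines; bands over 400 µm are not drawn. Uox and Aqp5 were higher on the right in the outermost 25 µm, Areg in all bands shown, Tspan8 and Wnt3 were lower near the surface, and Hp peaked at 300 to 400 µm on the right and at 200 to 300 µm on the left.

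The gene lists below were chosen with earlier results of these sections known, and each is described by its counts and its median log2 ratio in strips 1 and 2, beside 0.15 and 0.04 for all genes. Of 4 epidermal stress genes 1 (Areg) was higher (medians 0.36 and 0.44). Of 8 cornified envelope genes 0 were higher and 1 (Lce1m) lower (-0.18 and -0.06), with Cnfn at 0.52 and 0.59 at the other end. Of 8 junction and basal genes 1 (Aqp3) was higher (-0.02 and -0.09), and Epcam, an epithelial adhesion protein, was the lowest at -0.28 and -0.23. Of 6 counted carriers and channels 1 (Aqp5) was higher (0.08 and 0.05), and Slc34a2, a phosphate carrier, was the lowest at -0.21 and -0.12. In these epithelial lists single members passed the threshold, and their neighbours in the list did not.

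Hair follicle genes gave 0 of 4 either way (0.08 and -0.16), with Tbx1 at 0.26 and -0.15 and Krt79, a keratin of the hair canal, at -0.16 and -0.36. Division genes gave 0 of 3 (-0.07 and -0.06), with Stmn1 at 0.03 and -0.02 and Cenpf, a kinetochore protein, at -0.13 and -0.30. No gene of either list passed the threshold in both strips.

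Of 8 macrophage and monocyte genes 1 (Ccl12) passed and 7 were above 0 in both strips (0.46 and 0.38); the exception was Mpeg1, a macrophage pore protein, at -0.15 and -0.36. The macrophage genes thus had a median above that of all genes in both strips. Of 5 granulocyte genes 0 passed (0.49 and 0.04). Within that list Csf3r, the receptor of granulocyte growth factor, stood at 0.65 and 0.58 and Cxcr2, the neutrophil chemokine receptor, at -0.48 and -0.46. Most Cxcr2 transcripts lay within 100 µm of the surface (77.4% to 95.4% on the 4 sides), and most Csf3r transcripts did not (6.41% to 21.3%). Of 4 T and NK cell genes 0 passed (0.20 and -0.18), with Rac2 at 0.21 and 0.05 and Ctla4, an inhibitory T-cell receptor, at 0.19 and -0.45.

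Fibroblast genes gave 1 of 11 higher, C3, which fat cells also make (0.22 and 0.19), and Col8a1, a short-chain collagen, was the lowest at -0.39 and -0.59. Vessel lists differed between strips. Blood endothelium had 0 of 6 past 1.5-fold in both strips (0.52 and 0.08), with Tie1, an endothelial receptor kinase, at 0.85 and 0.27 and Aqp1 at 0.35 and -0.01. Smooth muscle and pericyte genes had 0 of 8 (0.55 and 0.19), with the smooth muscle calponin Cnn1 at 0.85 and 0.34 and Ndufa4l2 at -0.43 and -0.32. Lymphatic endothelium had 1 of 3, Lyve1 (0.38 and -0.07), while Prox1, its defining transcription factor, stood at 0.38 and -0.39. Stefins, mast cell, nerve sheath and interferon-linked lists had 2 counted genes each and none of these passed in both strips.

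**Figure D5:**
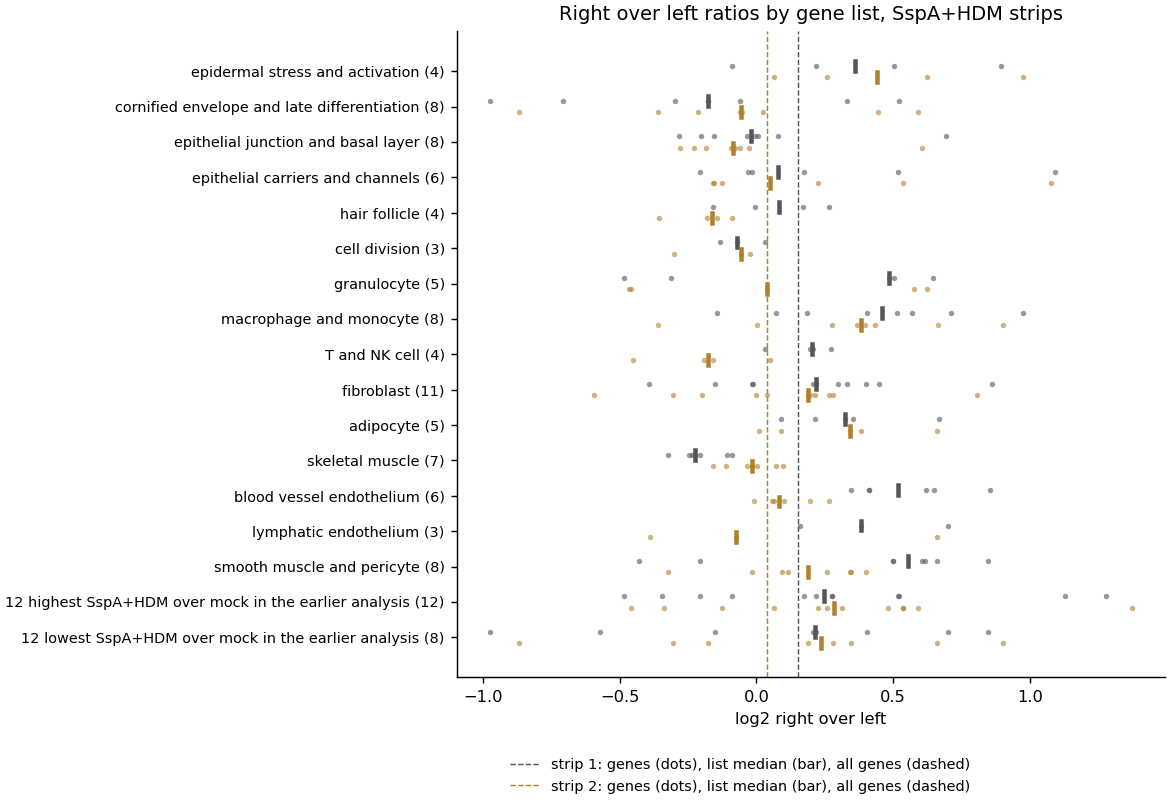
Log2 right-over-left ratios in the SspA+HDM strips for each gene list with at least 3 counted genes (number in parentheses); dots are genes, bars list medians and dashed lines the medians of all 266 genes, with strip 1 in grey and strip 2 in ochre. Medians of the macrophage list were 0.46 and 0.38 and of the adipocyte list 0.32 and 0.34, beside 0.15 and 0.04 over all genes.

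Finally, the 12 genes with the highest and the 12 with the lowest ratio of SspA+HDM over mock were compared between sides. They were chosen on these same sections, so their contrast with mock is no finding here. Of the 12 highest, 1 (Uox) was 1.5-fold higher on the right, 8 were above 0 in both strips and 3 below (medians 0.25 and 0.28). The stefins Cstdc4 (0.28 and 0.31) and Stfa2l1 (0.28 and 0.54), the retinol-binding protein Rbp2 (0.22 and 0.26), the glucose carrier Slc5a1 (0.52 and 0.53), Fxyd4 (0.17 and 0.23) and Cnfn were higher. Hsd11b2, the enzyme that inactivates corticosterone, was 2.19-fold higher in strip 1 and 1.40-fold in strip 2. Segment 6 held 39.9% of its strip 1 transcripts, and without that segment the log2 ratio of strip 1 was 0.44, under 1.5-fold. Without segment 4 it was 2.31. In strip 2 the highest segment of Hsd11b2 lay on the left (segment 4, 351 CPM). Cxcr2, Slc34a2 and 2610528A11Rik (-0.35 and -0.34) were lower, and Krt16 had opposite signs (-0.09 and 0.06).

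Of the 12 lowest, 8 reached 100 transcripts, and of these 1 (Lyve1) was higher and 1 (Lce1m) lower on the right (medians 0.21 and 0.24). The fibroblast genes Pi16 (0.22 and 0.19) and Igfbp6 (0.21 and 0.28) and the calponin Cnn1 were higher without passing in both strips, and Ifitm6 passed in strip 2 alone (0.41 and 0.90). Pcolce2, an enhancer of procollagen processing, stood at -0.15 and -0.30 and Retnla, a resistin-like secreted protein, at -0.57 and -0.18. Gabrp, Kcnj16, B4galnt2 and Marco had 16 to 73 transcripts on a side and were not counted.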

How the data were processed

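Xenium In Situ (version 1 chemistry, Mouse Tissue Atlassing Panel, per the labels) was run on 5-µm sections of formalin-fixed, paraffin-embedded skin. The authors deposited decoded transcripts and cell outlines of each section as tables. Each transcript carries a quality score from 5.28 to 40, per the file headers and values, and a mark for lying over a nucleus. Software for decoding and segmentation is not given in the sources used here. The authors' own assignment of transcripts to cells was kept. The samples share 0 cell identifiers.

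Gene transcripts with a score of at least 20 inside a cell outline were counted; these were 7929347 in the SspA+HDM strips and 2325146 in the mock strips. Control features were left out. Strip 1 lies at y under 5000 µm and strip 2 above it, and cells with no chain of neighbours within 100 µm were dropped. Counts per gene and side were divided by the panel total of that side (CPM). A gene was counted with at least 100 transcripts in at least 1 side of each strip, and set apart by size only, at 1.5-fold or more in the same direction in both strips. A count of 0 was set to 3. Intervals are exact conditional binomial intervals at 95%. They cover counting error only, and with 1 sample per treatment no test was run.

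The surface was the 2nd percentile of cell y in 100-µm bins with at least 20 cells, and tissue depth ran to the 98th percentile. The outer-layer measure was added after the data were seen. Named genes are the 10 highest and 10 lowest past the threshold (7 passed on the lower side), the highest and lowest of each list with at least 3 counted genes, and the 24 genes of the last 2 lists; other genes were chosen after their values were seen. Members and lists were chosen with earlier results of these data known. Promoter windows are RefSeq's (GRCm38.p6). The computation was tested on simulated data, with Python 3.11.15, numpy 2.4.6, pandas 2.3.3, scipy 1.17.1 and matplotlib 3.10.9. Alternatives are given in the closing section.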

Additional observations from a re-analysis of the deposited data

Results flagged for a closer look

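The right-over-left ratios of 4 genes past 1.5-fold with SspA+HDM had the opposite sign in both mock strips. With SspA+HDM, 16 genes past 1.5-fold were also counted in mock. Of all 208 genes counted in mock, 79 were higher on the right in both strips and 82 lower, so either sign was common there. The difference between the sections was not tested, and left and right in one section have no known relation to left and right in the other. Ccn3, lower on the right with SspA+HDM (log2 ratios -0.89 and -1.18), stood at 0.99 and 0.35 in mock. Gpx2, at -0.90 and -0.87 with SspA+HDM, stood at 0.45 and 0.40 in mock. Tspan8, at -1.14 and -0.90 with SspA+HDM, stood at 0.21 and 0.12 in mock. Serpinb11, higher on the right with SspA+HDM (0.60 and 0.69), stood at -0.63 and -0.45 in mock.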

How the results depend on the processing

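Against 17 higher and 7 lower genes, the numbers were 11 and 11 with no quality minimum, 11 and 7 over nuclei only, 11 and 10 with the division at the median cell x, 9 and 9 when centred on the median gene, 27 and 6 per cell, 130 and 1 per mm of length, 12 and 49 within 100 µm of the surface, 27 and 9 deeper, and 4 and 1 at 2-fold. With a minimum of 20 transcripts they were 18 and 15, and with a minimum of 1 transcript 18 and 21. In alternatives chosen after seeing the data they were 10 and 6 over genes counted in mock as well, 6 and 24 per transcript of 4 adipocyte genes, 20 and 7 per transcript of 4 epithelial genes, and, without segment 3, 12 and 49 within 100 µm and 25 and 12 deeper. Leaving out each of the 8 segments in turn gave 12 to 19 higher and 7 to 12 lower. With all transcripts lying on a side, with the middle 20% of x left out, or without the 5 most abundant genes in the total, the numbers stayed within 1.5 times. Per mm the median gene stood at 0.78 and 0.60 on the log2 scale, and within 100 µm of the surface at -0.28 and -0.31. Among named genes that were counted and past 1.5-fold in a strip, every change of sign came from the depth bands. Within 100 µm these were, in strips 1 and 2, 5330417C22Rik (-1.03 and -0.75), C3 (-0.92 and -0.85), Cd300lf (-0.68 and -0.40), Ccl12 (-0.19 and -0.34) and Pf4 (-0.59 and -0.32), in strip 1 Csf3r (-0.73) and Tnnc1 (0.10), and in strip 2 Hpx (-0.77), Retn (-0.18), Ifitm6 (-0.17) and Col8a1 (0.53). Deeper than 100 µm they were Aqp5 (-1.23 and -0.97), Tspan8 (0.19 and 0.39), Chl1 (0.25 and 0.030), Lce1m in strip 1 (0.90) and Wnt3 in strip 2 (0.25). The cause was not tested. Several of these changes rest on few transcripts in a band and are poorly measured. Within 100 µm lay 2.79% of 645 left and 34.3% of 67 right Tnnc1 transcripts of strip 1. In strip 2 it was 37.5% of 56 and 4.55% of 330 for Hpx, and 0.762% of 3541 and 0.355% of 8172 for Retn. Counts were also low there for 5330417C22Rik, Ifitm6 and Col8a1, and for Lce1m deeper than 100 µm. No paired analysis was possible because each treatment had 1 sample. Low counts limit Hpx, Aqp5 and 5330417C22Rik, with 40 to 73 transcripts on the left sides.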
